A study of Mus musculus with 38 samples.

Results

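Thy1, Cd44, Cd24a, Cd2 and Cd5 encode proteins on the surface of early T cells, and the chromatin around these 5 genes was read from 17 lists of ChIP-seq peaks. A peak belonged to a gene when its centre lay between 50 kb before and 50 kb after the gene body on mm10. The gene bodies are those of GENCODE, with Thy1 on the plus strand at chr9:44043384-44048579, Cd44 on the minus strand at chr2:102811141-102901665, Cd24a on the plus strand at chr10:43578284-43584265, Cd2 on the minus strand at chr3:101275899-101287939 and Cd5 on the minus strand at chr19:10717116-10739002. This rule kept 328 of 359759 peaks, 103 at Thy1, 64 at Cd44, 27 at Cd24a, 39 at Cd2 and 95 at Cd5. The rule used position alone. Each window is named for 1 gene but holds neighbours as well. Usp2, Rnf26 and Gm49380 lay wholly or partly in the window of Thy1, Slc1a2 in that of Cd44, 1700021F05Rik in that of Cd24a, and Pga5 and Vps37c in that of Cd5, whereas the window of Cd2 held no other protein-coding gene. In the deposited annotation the nearest gene was the named one for 59 of 103 peaks at Thy1, 53 of 64 at Cd44, 15 of 27 at Cd24a, 39 of 39 at Cd2 and 12 of 95 at Cd5.

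All samples came from Cas9-LP cells, lymphoid progenitor (LP) lines made from fetal liver of mice that lack the B-lineage factor Ebf1 and carry Cas9 at Rosa26, so every group shared the Ebf1 deficiency. LP samples were grown on OP9 stroma, and Phase 1 and Phase 2 samples on OP9-DLL4, which presents the Notch ligand DLL4. RUNX1, CTCF, Med12 and p300 were profiled in LP and Phase 1, and Notch1-IC, the released intracellular part of Notch1, in LP, Phase 1 and Phase 2. Further lists came from cells with guide RNAs, namely RUNX1 in LP with sgCTCF or the control guide sgCont, RUNX1 in Phase 1 with sgMed12 or sgCont, and Med12 in Phase 1 with sgCbfb or sgCont. Every list combined 2 replicates, so no difference between lists could be set against the spread between replicates, and no test was made. Scores are the authors' normalized peak scores and were ranked only within a list. Peak lists hold no expression values, so the labels of the cells were not checked against marker genes here. A percentile below is the share of peaks of the same list with a lower score.

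Thy1 is a GPI-anchored glycoprotein that is abundant on thymocytes. CD44, a hyaluronan receptor, is high on the earliest thymic progenitors and lower once cells are committed to the T lineage. CD24 is a small GPI-anchored glycoprotein of immature lymphocytes, CD2 an adhesion receptor, and CD5 a scavenger receptor family protein that dampens signaling through the T cell receptor. Among the factors profiled, RUNX1 binds DNA together with Cbfb, CTCF organizes chromatin loops, Med12 is a subunit of the Mediator complex and p300 is a histone acetyltransferase. Notch1-IC is carried to DNA by RBPJ.

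The sites that changed class between the stages are shown first as sequence, since the letters under them could be compared with the factors listed there. Each window is 200 bp around a peak centre, given as the plus strand of mm10. Capitals mark strings found on either strand, namely TGTGGTT or TGCGGTT and the shorter TGTGGT for RUNX, GTGGGAA for RBPJ, GAGGAAGT for PU.1, ACCGGAAG or ACAGGAAG for ETS factors, TGACTCA for AP-1, CTTTGAT or CTTTGAA for TCF1, and the CTCF consensus with at most 1 mismatch. TGTGGTT contains TGTGGT, so the RUNX strings overlap. The first pair of sequences is from the LP-specific RUNX1 sites, which were listed in LP only, and the other 3 are from Phase 1-specific RUNX1 sites that held the 7-letter RUNX string.
Thy1, LP-specific RUNX1 site (chr9:44076905-44077104): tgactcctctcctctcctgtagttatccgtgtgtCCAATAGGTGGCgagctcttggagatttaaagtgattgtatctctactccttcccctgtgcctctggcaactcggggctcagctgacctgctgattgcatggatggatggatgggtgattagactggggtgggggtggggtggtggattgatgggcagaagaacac
Cd2, LP-specific RUNX1 site (chr3:101292686-101292885): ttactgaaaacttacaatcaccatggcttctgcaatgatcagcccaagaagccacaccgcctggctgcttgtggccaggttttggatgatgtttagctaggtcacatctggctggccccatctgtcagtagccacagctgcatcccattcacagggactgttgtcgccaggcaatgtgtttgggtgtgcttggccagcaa
Cd44, Phase 1-specific RUNX1 site (chr2:102844145-102844344): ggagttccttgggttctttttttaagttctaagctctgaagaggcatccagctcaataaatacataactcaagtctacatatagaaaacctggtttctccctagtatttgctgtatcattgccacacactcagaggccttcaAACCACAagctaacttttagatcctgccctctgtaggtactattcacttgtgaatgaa
Cd2, Phase 1-specific RUNX1 site (chr3:101295538-101295737): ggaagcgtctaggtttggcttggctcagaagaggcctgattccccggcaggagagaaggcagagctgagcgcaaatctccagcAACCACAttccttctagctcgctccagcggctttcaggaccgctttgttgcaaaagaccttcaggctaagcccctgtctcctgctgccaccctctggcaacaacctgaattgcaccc
Cd5, Phase 1-specific RUNX1 site (chr19:10788370-10788569): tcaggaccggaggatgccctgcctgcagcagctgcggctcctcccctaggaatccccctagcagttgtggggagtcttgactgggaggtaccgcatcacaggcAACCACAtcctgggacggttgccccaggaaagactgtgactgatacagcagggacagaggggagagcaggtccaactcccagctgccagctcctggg

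The LP-specific site of Thy1 held CCAATAGGTGGC, which differs from the CTCF consensus at 1 position, and neither LP-specific site held a RUNX string. The 7-letter RUNX strings occurred at 3 of the 7 Phase 1-specific sites and at 9 of the 36 shared ones, beside 29.8% and 22.8% of all such sites in the genome. Among all LP-specific RUNX1 sites 13.6% held a 7-letter RUNX string and 23.2% held the CTCF string with at most 1 mismatch.

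The next 7 sequences are sites that the later results return to, because of a high rank, a Notch1-IC peak, a peak in cells with a guide or a change of neighbours.
Thy1, shared RUNX1 site (chr9:44031261-44031460): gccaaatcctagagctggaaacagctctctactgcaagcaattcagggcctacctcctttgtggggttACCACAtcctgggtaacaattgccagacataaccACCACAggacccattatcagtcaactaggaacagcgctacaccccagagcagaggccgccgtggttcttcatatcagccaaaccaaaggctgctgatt
Cd44, nearer upstream site (chr2:102944189-102944388): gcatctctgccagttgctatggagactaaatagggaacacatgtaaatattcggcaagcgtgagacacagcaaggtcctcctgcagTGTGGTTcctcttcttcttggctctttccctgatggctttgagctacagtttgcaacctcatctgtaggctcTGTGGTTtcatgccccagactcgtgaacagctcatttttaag
Cd44, farther upstream site (chr2:102948597-102948796): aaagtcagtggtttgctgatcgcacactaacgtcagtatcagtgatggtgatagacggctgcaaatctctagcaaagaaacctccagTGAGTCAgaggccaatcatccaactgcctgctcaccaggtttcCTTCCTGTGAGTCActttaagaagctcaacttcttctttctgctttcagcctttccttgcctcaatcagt
Cd2, downstream site (chr3:101274860-101275059): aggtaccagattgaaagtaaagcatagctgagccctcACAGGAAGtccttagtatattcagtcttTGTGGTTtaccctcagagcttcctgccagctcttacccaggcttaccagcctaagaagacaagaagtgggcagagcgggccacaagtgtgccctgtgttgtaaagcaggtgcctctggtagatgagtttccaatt
Cd24a, CTCF site (chr10:43575012-43575211): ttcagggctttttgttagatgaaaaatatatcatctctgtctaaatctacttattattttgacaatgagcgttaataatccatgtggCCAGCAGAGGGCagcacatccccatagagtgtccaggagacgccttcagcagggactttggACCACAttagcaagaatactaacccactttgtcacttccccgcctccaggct
Cd5, CTCF site (chr19:10709437-10709636): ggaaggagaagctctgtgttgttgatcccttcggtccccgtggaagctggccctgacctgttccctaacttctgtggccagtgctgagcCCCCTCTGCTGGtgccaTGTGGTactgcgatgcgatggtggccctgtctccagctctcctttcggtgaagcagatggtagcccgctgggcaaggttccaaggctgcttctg
Cd5, neighbouring RUNX1 site (chr19:10710013-10710212): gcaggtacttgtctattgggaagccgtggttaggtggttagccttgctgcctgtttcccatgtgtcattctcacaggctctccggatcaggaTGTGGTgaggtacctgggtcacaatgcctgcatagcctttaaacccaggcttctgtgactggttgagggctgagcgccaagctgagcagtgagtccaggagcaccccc

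The nearer Cd44 site held 2 copies of TGTGGTT. The farther one held no RUNX string but an ETS string and 2 copies of TGAGTCA, the reverse complement of the AP-1 string. The ETS string and the second AP-1 string of that site share 1 base. RUNX1 was listed at both sites in both stages. In all windows together, the 7-letter RUNX strings were found in 9 of 38 RUNX1 peaks in LP and 12 of 43 in Phase 1, compared with 21.2% and 25.4% of all peaks of these lists. The CTCF string with at most 1 mismatch was found in 12 of 24 LP CTCF peaks and 12 of 23 in Phase 1, compared with 62.9% and 63.4%. The shares of these strings in the 5 windows were thus near those of the whole lists. The shorter string TGTGGT, added after the data had been examined, was in 10 of the 24 LP CTCF peaks and 11 of the 23 in Phase 1, beside 22.7% and 23.2% of those lists. Both printed CTCF sites, at Cd24a and at Cd5, held it, but they were picked for printing and add nothing to these counts. The strongest LP CTCF peak of the Cd24a window (363.7) did not hold it.

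The number of peaks differed widely among the genes. RUNX1 peaks in LP numbered 13 at Thy1, 12 at Cd5, 7 at Cd44, 4 at Cd2 and 2 at Cd24a, and in Phase 1 they numbered 14, 14, 8, 4 and 3. Over the windows of 21938 protein-coding genes the medians were 3 in LP and 4 in Phase 1. Thy1 and Cd5 were at the upper end, since 2.35% of windows held as many LP RUNX1 peaks as Thy1 and 3.68% as many as Cd5. Cd2 and Cd24a were near the middle, with 45.5% and 65.0% of windows holding as many. Cd44 had the longest window, 190.5 kb, and 22.2% of windows held as many LP RUNX1 peaks. CTCF showed another order, with 8 peaks at Thy1, 6 at Cd5, 5 at Cd2, 4 at Cd24a and only 1 at Cd44 in LP, and as many CTCF peaks as at Cd44 were found in 86.6% of windows. Windows differ in length, and the counts above are not corrected for it.

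**Figure D1:**
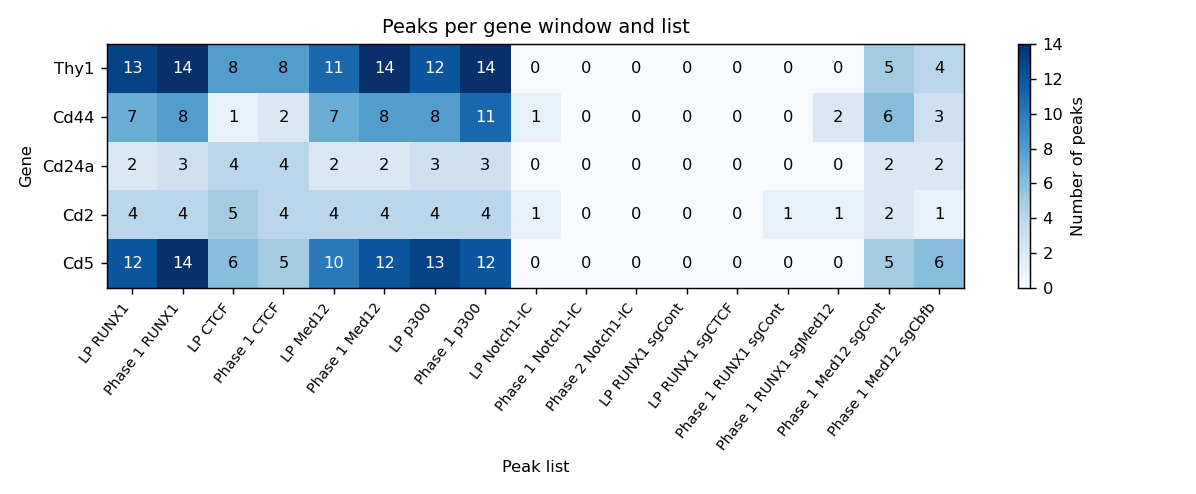
Number of peaks (color and printed digits) for each gene window (vertical) in each of the 17 lists (horizontal). Thy1 and Cd5 held 10 or more peaks in all RUNX1, Med12 and p300 lists without guides, and the lists of Notch1-IC and of RUNX1 with guides held at most 2 peaks in any window.

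Overlapping peaks merged into 64 regions, 20 at Thy1, 12 at Cd44, 6 at Cd24a, 8 at Cd2 and 18 at Cd5. RUNX1, Med12 and p300 were all listed in both stages at 28 of them, of which 11 were at Thy1, 7 at Cd44, 5 at Cd5, 3 at Cd2 and 2 at Cd24a. At 7 regions CTCF was listed in both stages as well. CTCF stood alone at 10 regions, 3 each at Thy1, Cd24a and Cd2, 1 at Cd5 and none at Cd44. Regions with RUNX1, Med12 and p300 in Phase 1 only numbered 5, and the only region with all 3 in LP only was at Cd2. Of the 64 regions, 12 lay inside the named gene, 16 inside another protein-coding gene and 36 outside protein-coding genes.

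**Figure D2:**
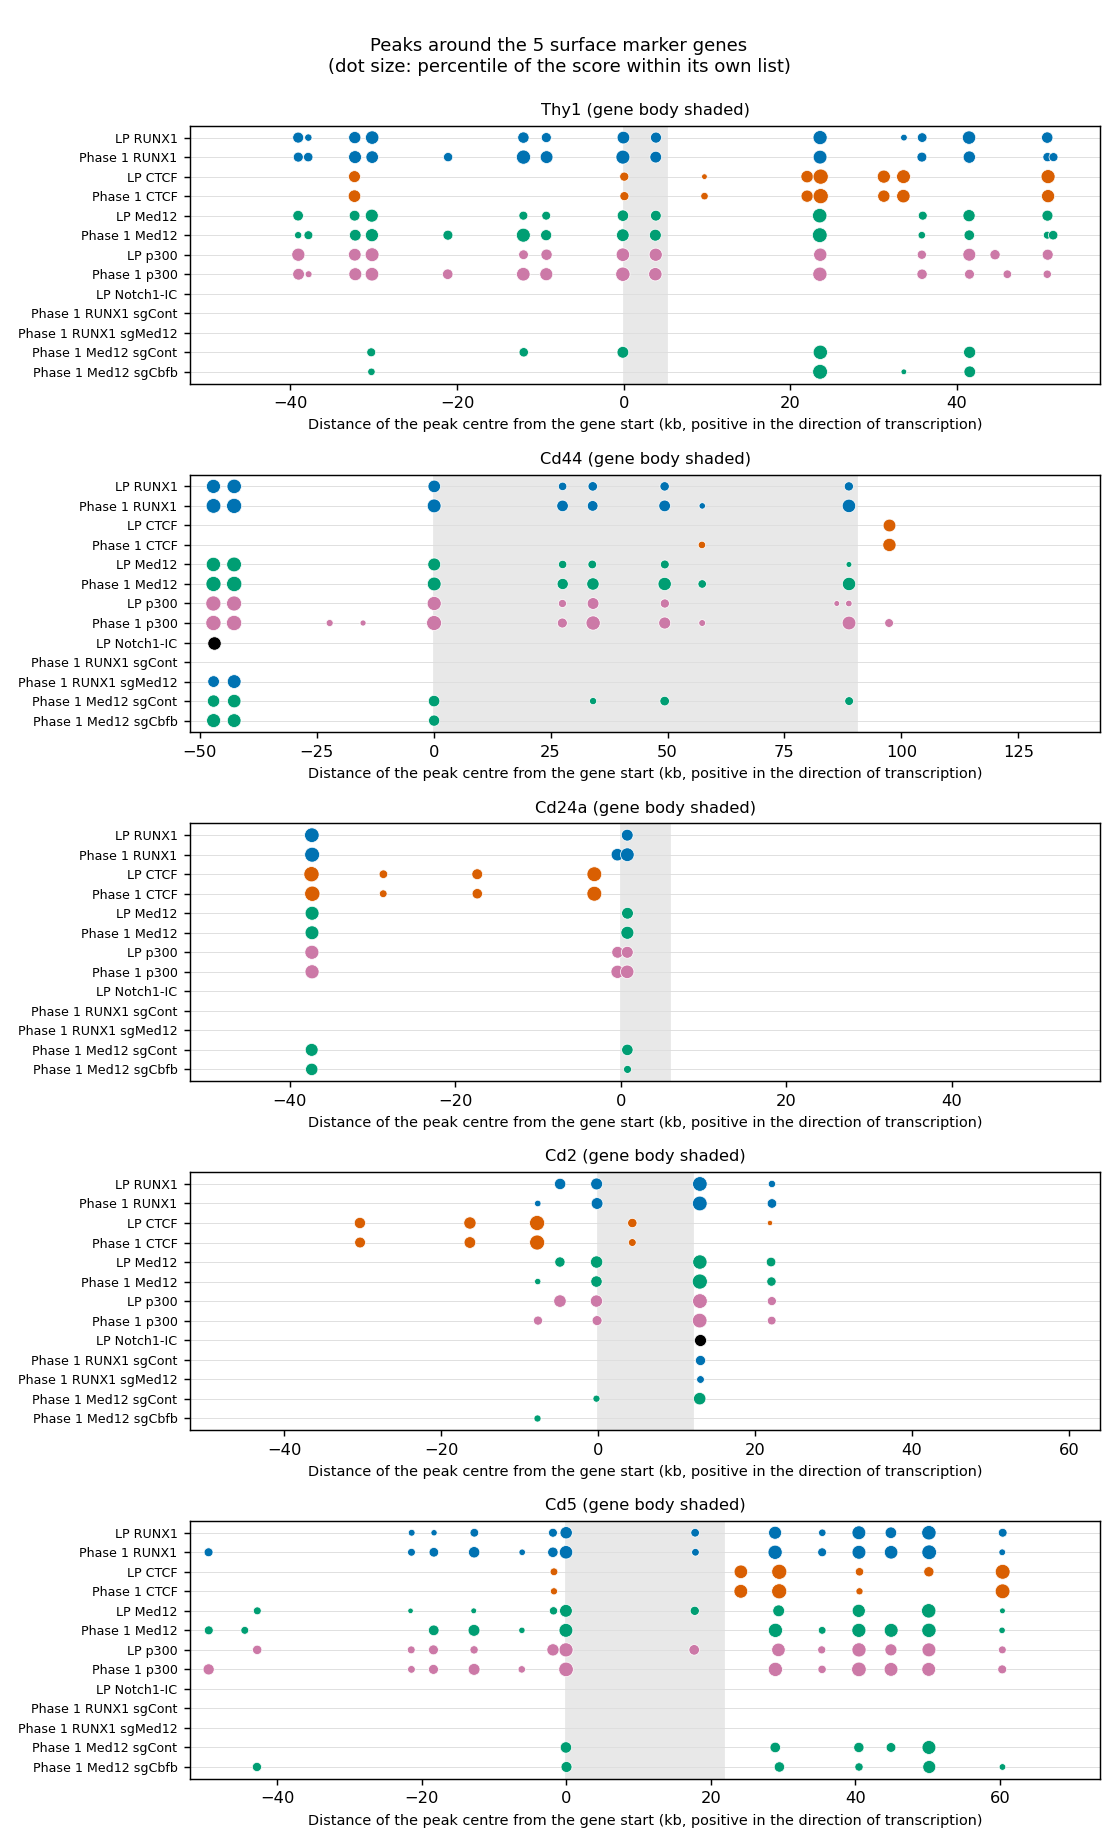
Peaks of each list (rows) against the distance of their centre from the gene start in kb, positive in the direction of transcription, with the gene body shaded and dot size giving the percentile of the score within its list. Lists with no peak in any window are left out. At 28 of the 64 regions dots for RUNX1, Med12 and p300 stand above each other in both stages, and CTCF dots are at the same positions in LP and Phase 1 with 3 exceptions.

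To ask how occupancy of these genes moved on Notch stimulation, each site was classed as LP-specific, shared or Phase 1-specific by overlap of at least 1 bp between the stages. RUNX1 had 2 LP-specific, 36 shared and 7 Phase 1-specific sites, beside 12.3%, 60.8% and 26.9% in the genome. The shared portion was 80.0% (95% Wilson interval 66.2% to 89.1%, counting error only). For CTCF the numbers were 2, 22 and 1, beside 8.82%, 83.6% and 7.61%. Med12 had 6, 28 and 12, beside 13.0%, 53.7% and 33.3%, and p300 had 7, 33 and 11, beside 13.2%, 50.7% and 36.1%. Shared sites were therefore the largest class for all 4 factors, and the RUNX1 interval did not hold the genome value. Nor, narrowly, did that of p300 (64.7%, interval 51.0% to 76.4%). The RUNX1 interval did hold it in windows of 100 kb (48 of 71 shared, interval 56.1% to 77.3%, genome 60.8%) and at a score of at least 30 (23 of 31, interval 56.8% to 86.3%, genome 67.2%). So did the p300 interval at both settings (47 of 80, 47.8% to 68.9%, genome 50.7%, and 23 of 38, 44.7% to 74.4%, genome 55.8%). Unlike that of RUNX1, the p300 interval also held it in windows of 20 kb (20 of 31, 46.9% to 78.9%, genome 50.7%). The same was true with lists of equal length (28 of 44, 48.9% to 76.2%, genome 52.7%). Peaks of 1 window are not independent of each other. With stage lists cut to equal length, the excess of Phase 1-specific over LP-specific sites was not kept, since RUNX1 had 4 of each among 42 sites, and for Med12 (10 LP-specific and 7 Phase 1-specific of 41) and p300 (12 and 4 of 44) the order turned. Equal length by itself makes the stage-specific classes about equal in number over the genome, so loss of an excess is largely built into this setting.

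**Figure D3:**
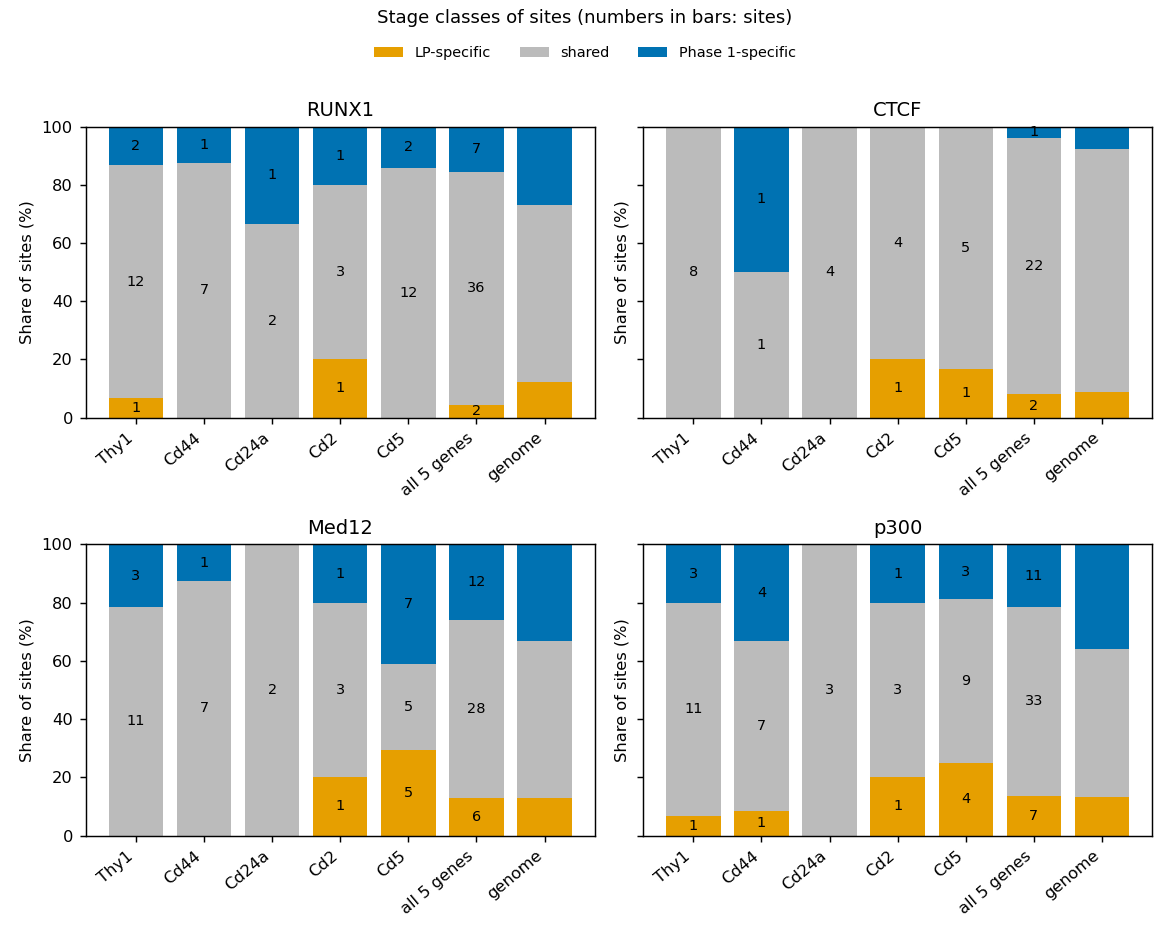
Share of sites (vertical, %) that were LP-specific, shared or Phase 1-specific, in 1 panel for each factor, for the 5 genes singly and together and for the whole genome, with the number of sites printed in the bars. Shared sites make up most of each bar except for CTCF at Cd44, where 1 of 2 sites was shared, and Med12 at Cd5, where 5 of 17 were.

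The genes differed in this respect. Cd44 and Cd24a had no LP-specific site of RUNX1, CTCF or Med12. Cd44 had 1 Phase 1-specific site each of RUNX1, CTCF and Med12, all in the same place, and 4 of p300. Cd24a had no Phase 1-specific site other than 1 of RUNX1. Cd5 was the window with most stage-specific Med12 sites, with 5 LP-specific, 5 shared and 7 Phase 1-specific ones, although 12 of its 14 RUNX1 sites were shared. All of these LP-specific Med12 scores but the highest (54.2) were below the list median of 48.8. The Phase 1-specific ones, other than 83.8 and 94.7, were below the median of 40.3. Such weak sites can be missing from the other list because they lay just below the threshold. Thy1 had no LP-specific Med12 site and 3 Phase 1-specific ones.

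The LP-specific RUNX1 sites were a weak and a moderate one, and 38.4% of protein-coding windows held at least 1 such site. The site at Thy1 (peak chr9:44076834-44077174, intron of Usp2 and of Gm49380, 33.6 kb after the start) had a score of 18.4 in the LP list. The CTCF peak over it was present in LP with a score of 156.3 and in Phase 1 with 143.5, and no Med12 or p300 peak was listed there without guides. The site at Cd2 (region chr3:101292615-101292988, intergenic, 4.86 kb before the start) had a score of 46.0, and LP-only peaks of Med12 (score 36.8) and p300 (76.6) lay over it without any CTCF. An LP CTCF peak thus lay at 1 of the 2 sites, beside 36.8% of LP-specific RUNX1 peaks in the genome.

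Phase 1-specific RUNX1 sites were found at all 5 genes, and 52.3% of protein-coding windows held at least 1. All but the one at Cd24a had scores of 17.2 to 26.8, below the list median of 44.0, where the lowest score was 15. A site this weak can be missing from the other list because it lay just below the threshold. At Thy1 they lay 21.1 kb before the start, in an intron of the noncoding gene Gm39323 (score 26.8), and 51.5 kb after it, in an untranslated region of Usp2 (score 25.3). At Cd5 they lay 6.12 kb before the start, in an intron of A430093F15Rik (score 17.3), and 49.5 kb before it, between genes (score 25). These 4 sites all carried a Phase 1-only Med12 peak, and all but the one in Usp2 a Phase 1-only p300 peak. At Cd44 the site was intronic, 57.4 kb after the start (chr2:102844080-102844408, score 17.2), and coincided with the only Phase 1-specific CTCF peak of all windows (score 23.9). At Cd2 the site lay 7.74 kb before the start (score 17.4), next to a CTCF peak with scores of 264.1 in LP and 292.9 in Phase 1, so that Med12 and p300 were listed at a constant CTCF site in Phase 1 only.

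The Phase 1-specific site at Cd24a had the highest score of the 7, 60.0, and lay 371 bp before the annotated gene start (middle of the region chr10:43577733-43578093 formed with p300). It was the only one without Med12, and p300 was listed there in both stages with scores of 61.2 in LP and 80.3 in Phase 1. A Phase 1 Med12 peak lay at 6 of the 7 Phase 1-specific RUNX1 sites, beside 75.0% in the genome, and a Phase 1 p300 peak at 6, beside 79.6%. A Phase 1 CTCF peak lay at 2 of the 7, beside 6.96%. With 7 sites the Wilson interval of the CTCF share ran from 8.22% to 64.1%.

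RUNX1 and CTCF met more often at these genes than across the genome when counted from CTCF. Of 24 LP CTCF peaks, 11 overlapped an LP RUNX1 peak (45.8%, interval 27.9% to 64.9%), beside 16.4% in the genome, and of 23 Phase 1 CTCF peaks 10 did (43.5%, interval 25.6% to 63.2%), beside 13.4%. Counted from RUNX1, an LP CTCF peak was at 11 of 38 peaks, beside 23.2%, and a Phase 1 CTCF peak at 10 of 43, beside 15.7%. RUNX1 was dense at Thy1 and Cd5, which held 5 and 4 of the 13 regions with both factors, and its part in this was not tested. Med12 lay at 32 of 38 LP RUNX1 peaks, beside 84.7%, and at 39 of 43 in Phase 1, beside 86.0%. p300 lay at 35 and 40 of them, beside 90.8% and 87.8%.

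Around the Thy1 start, all 4 factors were listed in both stages. The RUNX1 peak had a score of 67.7 in LP and 106.1 in Phase 1, Med12 49.1 and 55.8, p300 108.9 and 135.6, and CTCF 33.3 and 34.8. In Phase 1 the p300 peak at the start was the highest of the window. The strongest RUNX1 peak of the window in Phase 1 was instead the shared site 12.0 kb before the start, whose score was 46.1 in LP and 118.5 in Phase 1 and whose percentile rose from the 49.0th to the 83.7th. Its sequence above held 2 copies of TGTGGT on the minus strand but no 7-letter RUNX string. In LP the strongest RUNX1 (115.7), Med12 (140.3) and CTCF (290.4) peaks were 23.6 kb after the start, in an untranslated region of Gm49380, and the strongest p300 peak (125.1) was 30.2 kb before it, in an exon of Gm39323. Thy1 was thus the window whose leading RUNX1 site differed between the stages, from the 3′ side in LP to the 5′ side in Phase 1. The leading LP site lay in a neighbouring gene, and Usp2 was the nearest gene for 34 of the 103 peaks of this window. The deposited annotation put 27 of the 103 peaks at a promoter, that of Thy1 or of another gene. Whether either site acts on Thy1 was not tested. Other shared Thy1 sites, named after their values were seen, differed in rank in either direction. The site 9.28 kb before the start had RUNX1 scores of 33.6 in LP and 66.0 in Phase 1 (percentiles 35.3 and 65.5), whereas that 41.5 kb after it, in an intron of Gm49380, had 86.4 and 56.7 (percentiles 73.2 and 59.9). Inside Thy1 itself a single intronic site, 3.83 kb after the start, had 42.6 and 48.3. All 4 factors were again listed in both stages 32.3 kb before and 50.9 kb after the start.

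Cd44 was marked by a pair of intergenic sites far upstream. At the nearer one (chr2:102944104-102944475, 42.6 kb before the start), RUNX1 had scores of 134.1 in LP and 248.2 in Phase 1, Med12 166.8 and 271.7, and p300 276.3 and 474.6. At the farther one (chr2:102948518-102948894, 47.0 kb before the start), the scores were 113.9 and 166.3 for RUNX1, 132.7 and 175.3 for Med12, and 324.1 and 394.1 for p300. These were the 2 highest peaks of the window for each of the 3 factors in both stages. They ranked above the peaks at the Cd44 start, where RUNX1 had 65.7 and 99.6, Med12 74.7 and 80.9, and p300 140.1 and 226.6. No CTCF peak was listed at any of the 3 places, and the highest CTCF peak of the window, with 106.1 and 132.7, lay 97.4 kb after the start, past the end of the gene. Within the gene body, RUNX1, Med12 and p300 were shared at 4 more places, 27.6, 34.0, 49.4 and 88.8 kb after the start. The RUNX1 peaks there had scores of 24.7 to 30.1 and percentiles of 21.8 to 30.6 in the LP list, and scores of 36.4 to 87.5 and percentiles of 42.2 to 74.7 in the Phase 1 list, so that the ranges did not overlap.

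Cd24a had few sites. The strongest peak of every factor was at 1 region 37.3 kb before the start, in an exon of 1700021F05Rik, where CTCF had scores of 363.7 and 472.1 and RUNX1 148.6 and 191.7 in LP and Phase 1. Med12 had 108.3 and 82.3 there, and p300 138.0 and 118.1. The deposited annotation put 18 of the 27 peaks of this window at a promoter and 9 between genes. It named Mtres1, not Cd24a, as the nearest gene for 12 of the 27. Near the gene itself, RUNX1, Med12 and p300 were listed together in both stages 818 bp after the annotated start, with RUNX1 scores of 52.4 and 95.7. A CTCF peak with 225.3 and 259.7 lay alone 3.17 kb before the start, over an exact match to the CTCF consensus. The other CTCF peaks that stood alone, 17.3 and 28.7 kb before the start, had LP scores of 53.7 and 29.1. No peak of any list was found more than 1 kb after the start of Cd24a.

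At Cd2 the strongest RUNX1, Med12 and p300 peaks were not at the start but 13.0 kb after it, just past the end of the gene (chr3:101274791-101275162). RUNX1 had 149.4 in LP and 167.4 in Phase 1 there, Med12 132.7 and 182.6, and p300 201.3 and 171.8, without CTCF. At the start RUNX1 had 54.0 and 48.4, Med12 62.7 and 40.3, and p300 71.0 and 31.2. All CTCF peaks of the window but 1 were in both stages, at 30.4, 16.3 and 7.74 kb before the start and 4.36 kb after it, in an intron. The exception, a weak LP-only peak with a score of 15.4, was 22.0 kb after the start.

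At Cd5 the strongest RUNX1 (133.3 and 160.6) and Med12 (136.3 and 101.6) peaks were 50.2 kb after the start, in an untranslated region of Vps37c. The strongest p300 peaks (146.5 and 161.8) were 40.5 kb after the start, in an intron of Vps37c. The deposited annotation put 26 of the 95 peaks of this window at a promoter. It named Cd5 as the nearest gene for only 12 of the 95, so promoter peaks of neighbours were among them. At the Cd5 start RUNX1 had 61.3 and 85.3, Med12 71.8 and 82.6, and p300 142.6 and 156.4. The strongest CTCF peak, with 268.1 and 313.2, was 29.4 kb after the start in an intron of Vps37c, and the peaks beside it differed between the stages. In LP the CTCF region carried Med12 (54.2) and p300 (110.3). In Phase 1 neither was listed there. Med12 (94.7) and p300 (127.1) were then listed at a RUNX1 region that began 89 bp away, on the side of the Cd5 start. LP had RUNX1 (75.1) listed in that region without them, and Phase 1 had RUNX1 with 120.2. No list held a peak at both regions, and whether peaks so close together can be listed apart was not tested. A factor not listed at 1 of these regions may still have been bound there. The RUNX1 site of this pair was chosen after its values were seen, as were the 3 that follow. At 44.9 kb after the start RUNX1 (49.1 and 89.5) was shared and Med12 (83.8) was listed in Phase 1 only. At 17.8 kb after the start, in an exon and intron of Cd5 (RUNX1 25.3 and 20.3), and at 1.75 kb before the start (RUNX1 26.6 and 34.1), Med12 and p300 were listed in LP only. RUNX1 sites present in both stages thus had Med12 listed in 1 stage only, in either direction.

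Sites present in both stages could still differ in rank, and this measure was added after the lists had been examined. The percentile of the score within its list was higher in Phase 1 at 28 of 36 shared RUNX1 sites, beside 61.8% in the genome, at 20 of 28 Med12 sites, beside 58.9%, at 24 of 33 p300 sites, beside 64.4%, and at 7 of 22 CTCF sites, beside 45.7%. Cd44 was the most uniform window. All 7 of its shared sites were higher in Phase 1 for RUNX1, for Med12 and for p300, with median differences of 15.7, 26.6 and 16.0 percentile points. Within Cd44 the largest difference was in the 3′ untranslated region of Cd44, 88.8 kb after the start, where RUNX1 went from 28.4 to 87.5 in score, Med12 from 16.7 to 70.8 and p300 from 18.5 to 101.7 (named after its values were seen). Cd2 went the other way for p300, with 0 of 3 sites higher in Phase 1, and Thy1 was mixed, with 7 of 12 RUNX1 sites higher. Lists differed in length, and a percentile in a longer list is not the same measure of binding.

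**Figure D4:**
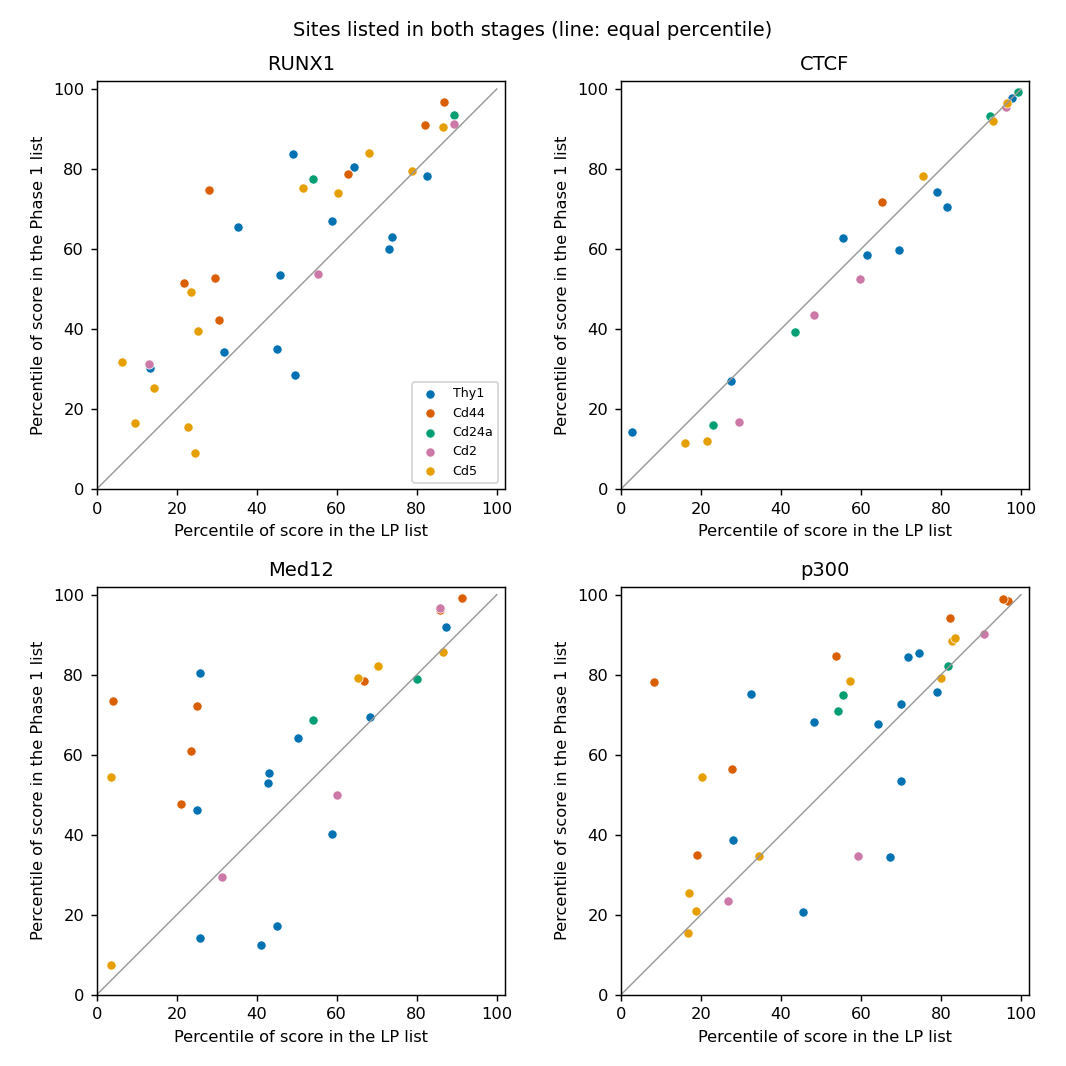
Percentile of the score in the Phase 1 list (vertical) against that in the LP list (horizontal) for each site listed in both stages, in 1 panel for each factor, colored by gene, with a line at equal percentile. The 7 Cd44 sites sit above the line for RUNX1, Med12 and p300, and the CTCF sites lie nearer to the line than those of the other factors.

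The Phase 1 and Phase 2 Notch1-IC lists had no peak in any of the 5 windows. The lists used here were short, with 152 and 352 peaks, and the study describes longer sets of reproducible Notch1-IC peaks for both stages, so a window without a peak here may hold one there. In the lists used here, 1.61% and 2.68% of protein-coding windows held a peak of them, or 3.57% a peak of either. The LP list held 2, the farther upstream site of Cd44 (score 26.9) and the downstream site of Cd2 (score 21.8), where 11.9% of protein-coding windows held at least 1. Both were also among the strongest RUNX1, Med12 and p300 sites of their windows, and neither sequence held the RBPJ string, which 4.42% of all LP Notch1-IC peaks held. The LP cells were grown without DLL4.

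RUNX1 binding with the CTCF guide could not be compared here, because neither the sgCont nor the sgCTCF list of LP RUNX1 had a peak in any window. These lists held 975 and 874 peaks, and 12.2% and 10.6% of protein-coding windows had at least 1. In the genome 59.1% of the sgCont peaks were in the sgCTCF list and 65.9% of the sgCTCF peaks in the sgCont list. In Phase 1, RUNX1 with sgCont was listed only at the downstream site of Cd2 (score 21.5), and it was listed there with sgMed12 as well (score 16.5), beside 71.0% of sgCont peaks in the genome. The sgMed12 list had 2 more, at the nearer (27.7) and farther (21.6) upstream sites of Cd44, where the sgCont list had none, so that 1 of its 3 peaks was in the sgCont list, beside 52.6% in the genome. The sgMed12 list was the longer one, with 2094 peaks against 1550.

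The guide against Cbfb, the partner of RUNX1, was paired with Med12 in Phase 1. The sgCont list had 20 Med12 peaks in the windows, all of them over a Phase 1 RUNX1 peak, as were 94.4% in the genome. Of these, 11 were also in the sgCbfb list (55.0%, interval 34.2% to 74.2%), beside 67.8% in the genome. Counted the other way, 11 of 16 sgCbfb peaks were in the sgCont list, beside 71.4%. Promoter peaks were those so named in the deposited annotation. It names none at Cd44, so the peak at the Cd44 start counts as elsewhere. At promoters 6 of 8 were listed again, beside 92.3%, and elsewhere 5 of 12, beside 49.8%. The Wilson intervals of these shares all held the genome value, that of the promoter share only just, with an upper bound of 92.9%.

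By gene, Cd24a kept both of its Med12 peaks and Cd2 neither of its 2. The Med12 peak at the Thy1 start (score 37.9 with sgCont) was not listed with sgCbfb, nor was that at the Cd2 start (18.3), whereas those at the starts of Cd44 (36.0 and 34.7) and Cd5 (35.3 and 33.0) were in both lists. Both upstream sites of Cd44 were in both lists too, with 58.0 and 67.5 at the nearer and 43.0 and 72.9 at the farther one. The downstream site of Cd2, with the highest sgCont score of its window (44.0), was not listed with sgCbfb. At Cd44 all 3 peaks missing with sgCbfb lay inside the gene body. A peak missing from a list can lie just below its threshold, and the study calls its ChIP-seq of guide-treated cells noisier than usual.

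The 5 Med12 peaks listed with sgCbfb alone were named after their values were seen. At 4 of them CTCF was listed in LP and in Phase 1, beside 44.9% and 44.5% of all such peaks, values that lie within the interval of 37.6% to 96.4%. LP Med12 was listed at 3 of them, beside 55.6%, and Phase 1 Med12 at 2, beside 41.7%. These were the LP-specific RUNX1 site of Thy1 (15.8), the Phase 1-specific RUNX1 site of Cd2 (18.4), the CTCF region in the Vps37c intron of Cd5 (29.7) and a CTCF and RUNX1 region 60.3 kb after the Cd5 start (17.3). The last, 42.7 kb before the Cd5 start (24.2), coincided with LP-only Med12 and p300 peaks. In the Vps37c intron the guide lists differed in the way the stages did, since Med12 with sgCont was listed at the RUNX1 site (30.2) and with sgCbfb at the CTCF site. A missing listing at these close regions is again not a measured absence of Med12.

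**Figure D5:**
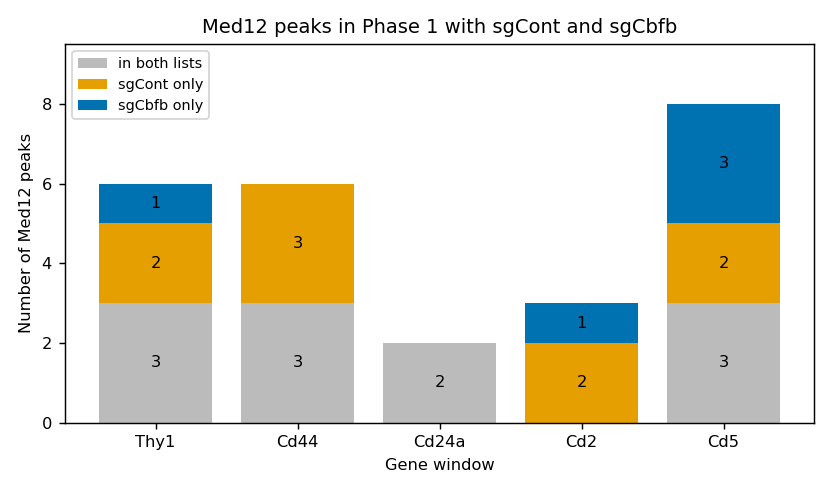
Number of Phase 1 Med12 peaks (vertical) in each gene window (horizontal), split into peaks in both guide lists, in sgCont only and in sgCbfb only. Cd24a kept 2 of 2 peaks, Cd2 kept 0 of 2, and Cd5 had 3 peaks with sgCbfb alone.

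The windows of 20 other surface genes of progenitors and early T cells gave a setting for these counts. They held 16 LP-specific, 103 shared and 48 Phase 1-specific RUNX1 sites, with more Phase 1-specific than LP-specific ones at 13 genes and the reverse at 3. The same held at Thy1, Cd44, Cd24a and Cd5, while Cd2 had 1 of each, beside 36.3% and 16.9% of protein-coding windows. A Phase 1 or Phase 2 Notch1-IC peak was listed at 4 of the 20 genes, Il2ra, Il7r, Cd3e and Cd96. Over the 17 lists, the peak counts of Thy1 and Cd5 were both most like those of Cd4 (Pearson r of 0.96 and 0.95 on a log2 scale, centred by list), and those of Cd44 most like Il7r (0.78). Cd2 had no close match, with 0.50 for Cd247, and Cd24a had none, with 0.30 for Cd4. The lists share cells and antibodies, and these r values only describe the counts. The window of Cd6, a gene next to Cd5, overlaps that of Cd5 and shares some of its peaks.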

How the data were processed

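The 38 samples formed 19 groups of 2 replicates. The 34 ChIP samples gave 17 peak lists, 1 per group, and no list of the 4 input samples was used here. Per the labels and the study's methods, the authors mapped reads to mm10 with Bowtie 1.1.1, called peaks with HOMER in factor mode against a matched control, and kept peaks reproducible between replicates by the irreproducible discovery rate with a normalized score of at least 15. The deposited peak score is HOMER's, and its scale is not stated. It was ranked only within a list. Scores from different lists are printed side by side above, and a difference between them is not a measured change in binding. Read depth was not used here, and a longer list can come from greater depth.

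Gene bodies were taken from GENCODE M21 and sequences from GRCm38.p6. Peaks were compared in Python 3.11.15 with pandas 2.3.3, numpy 2.4.6, scipy 1.17.1 and pysam 0.24.0. Sites overlapped when they shared at least 1 bp. Strings were searched in 200 bp around each centre, and all 1642 promoters compared were identical in the genome and in the RefSeq promoter table. The overlap and string code was tested on simulated peaks. Single peaks were named by rule, namely stage-specific RUNX1 peaks (up to 3 per class and window), all Notch1-IC peaks, RUNX1 peaks of guide lists, peaks within 1 kb of the start and the highest peak of each of the 8 stage lists. Like genes were ranked by Pearson r of log2(peaks + 1) over the lists. The genes and lists were chosen with earlier results of these data known. Alternatives were a score of at least 30, centres within 100 bp, overlap of 50% of the shorter peak, windows of 20 and 100 kb, promoter peaks left out, lists of equal length, the deposited nearest gene and strings in whole peaks.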

Additional observations from a re-analysis of the deposited data

How the results depend on the processing

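Of 101 alternative values, 90 stayed within counting error of the values given or, for counts, within 1.5 times. None moved with centres within 100 bp, overlap of 50% of the shorter peak, promoter peaks left out, 100 kb windows or whole-peak strings. Counting error is wide where sites are few, as for 1 of 2 (9.45% to 90.5%), so staying within it is a weak check. The RUNX1 and Med12 shares with lists of equal length count among the 90, although the order of the stage-specific classes was not kept. At a score of at least 30, the Phase 1-specific share of CTCF was 0% of 19 sites and the LP Notch1-IC list held 0 peaks. In 20 kb windows 1 Notch1-IC peak was left, and the single LP-specific RUNX1 site left, at Cd2, gave 0% with CTCF. With lists of equal length, the LP-specific share was 27.3% for p300 and 24.4% for Med12 against Phase 1-specific shares of 9.09% and 17.1%, which turns the order of both, RUNX1 had 9.52% of each, and the only sgCont RUNX1 peak was not kept with sgMed12 (0%). By the deposited nearest gene, at any distance, Cd24a had 15 peaks and Cd5 12. The 6-letter RUNX string, added after the data were seen, was in 47.4% of LP and 48.8% of Phase 1 RUNX1 peaks, beside 36.6% and 42.5% of the whole lists. RUNX1 in LP with sgCTCF gave no value, since no peak was listed. No paired analysis was possible because each list combines its replicates, and for the same reason no replicate could be left out.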
